A study of Bos taurus with 3 samples.

Results

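Ribosomal proteins are the protein components of the cytosolic ribosome, which reads mRNA and joins amino acids into protein. The large subunit forms the peptide bonds and lets the new chain out through a tunnel, while the small subunit holds the mRNA and checks each codon. The proteins are built into the particle in fixed proportion, and their mRNAs carry a 5′ terminal oligopyrimidine tract (TOP) through which mTORC1 controls their translation as a family. In the mammary gland, ribosomes on the endoplasmic reticulum make the caseins and whey proteins of milk.

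The genes described here were chosen by name. They were all genes of the 3 tables whose symbol, the last name in brackets of the authors' description, had the form of a cytosolic ribosomal protein (RPL, RPS, RPSA or RPLP with a number), without the RPS6K kinases. This gave 51 of 9154 genes, with 51 distinct symbols. Of these, 27 belonged to the large subunit, 22 to the small subunit, and RPLP0 and RPLP2 to the stalk of the large subunit. The tables of −35 d, −7 d and +3 d listed 50, 51 and 51 of them. The rule used names and no measured value, but it was set with earlier results of these data known.

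The study followed the bovine mammary gland around parturition in Holstein cows of the second parity. Tissue was sampled on day 35 before parturition (−35 d, dry period), on day 7 before (−7 d) and on day 3 after (+3 d, early lactation). RNA of 6 cows was pooled at each time point and 1 digital gene expression library was made per pool, so no group had a replicate. No genotype or treatment separated the groups, and every value is of whole mammary tissue. In such bulk tissue, fewer cells of a type and less RNA per cell cannot be told apart.

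A library of this kind holds short tags of 21 bases, each cut next to a CATG site of an mRNA, and a level was given as tags per 1000000 clean tags (TPM). The libraries held 5914422, 5593237 and 5845821 clean tags at −35 d, −7 d and +3 d, of which 2397173, 2314092 and 3097468 lay on listed genes. One tag stands for one mRNA site whatever the length of the mRNA, so levels of different genes need no length correction. Tags that matched several genes were left out by the authors, however, and ribosomal protein genes have many near-identical copies in mammalian genomes. Levels of different members therefore count unambiguous tags, not mRNA molecules, and the tags of several genes made up 36.0%, 33.1% and 23.0% of all gene-matched tags in the 3 libraries.

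The tables did not hold the whole ribosome. Of 79 core ribosomal proteins (47 large, 32 small), 48 were in the tables (27 and 21) and 31 were in none of them (20 and 11). Among those not listed were RPL5, RPL7A, RPL41, RPLP1, RPS6, RPS19 and RPS27A, and 30 of the 31 had an entry in the bovine RefSeq annotation. FAU, which encodes a small-subunit protein fused to a ubiquitin-like domain and is missed by the name rule, was listed at 563.5, 513.3 and 565.2 TPM. The remaining members included the paralogs RPL3L, RPL22L1, RPS27L and RPS4Y1.

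The ribosomal protein genes were among the most abundant genes of the tissue. Their median level was 620.4, 537.6 and 318.2 TPM at −35 d, −7 d and +3 d, against 13.9, 12.9 and 10.4 TPM over all listed genes. Of the 100 most abundant genes, 28, 27 and 24 were ribosomal protein genes. Levels differed widely within the family, from 3.55 to 5451 TPM at −35 d among the listed members. At +3 d the range was 0.86 to 3467 TPM.

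RPL13A and RPL10 stood at the top in all 3 libraries. RPL13A, a large-subunit protein that also takes part in translational silencing outside the ribosome, had 5451, 6275 and 3235 TPM in the order of the time points. RPL10, one of the last proteins to join the large subunit, had 5278, 6020 and 3467 TPM. Both genes had their highest value at −7 d and their lowest at +3 d. RPS2, at the mRNA entry of the small subunit, had 2588, 2530 and 1790 TPM, and RPL38 had 2304, 2469 and 1442 TPM. The 5 most abundant members carried 38.4%, 39.5% and 39.0% of the family's tags. At the other end, RPL3L, RPL11, RPS4X, RPL8 and RPS27L had fewer than 20 TPM in every library, and 14, 15 and 16 members had less than 100 TPM at −35 d, −7 d and +3 d.

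**Figure D1:**
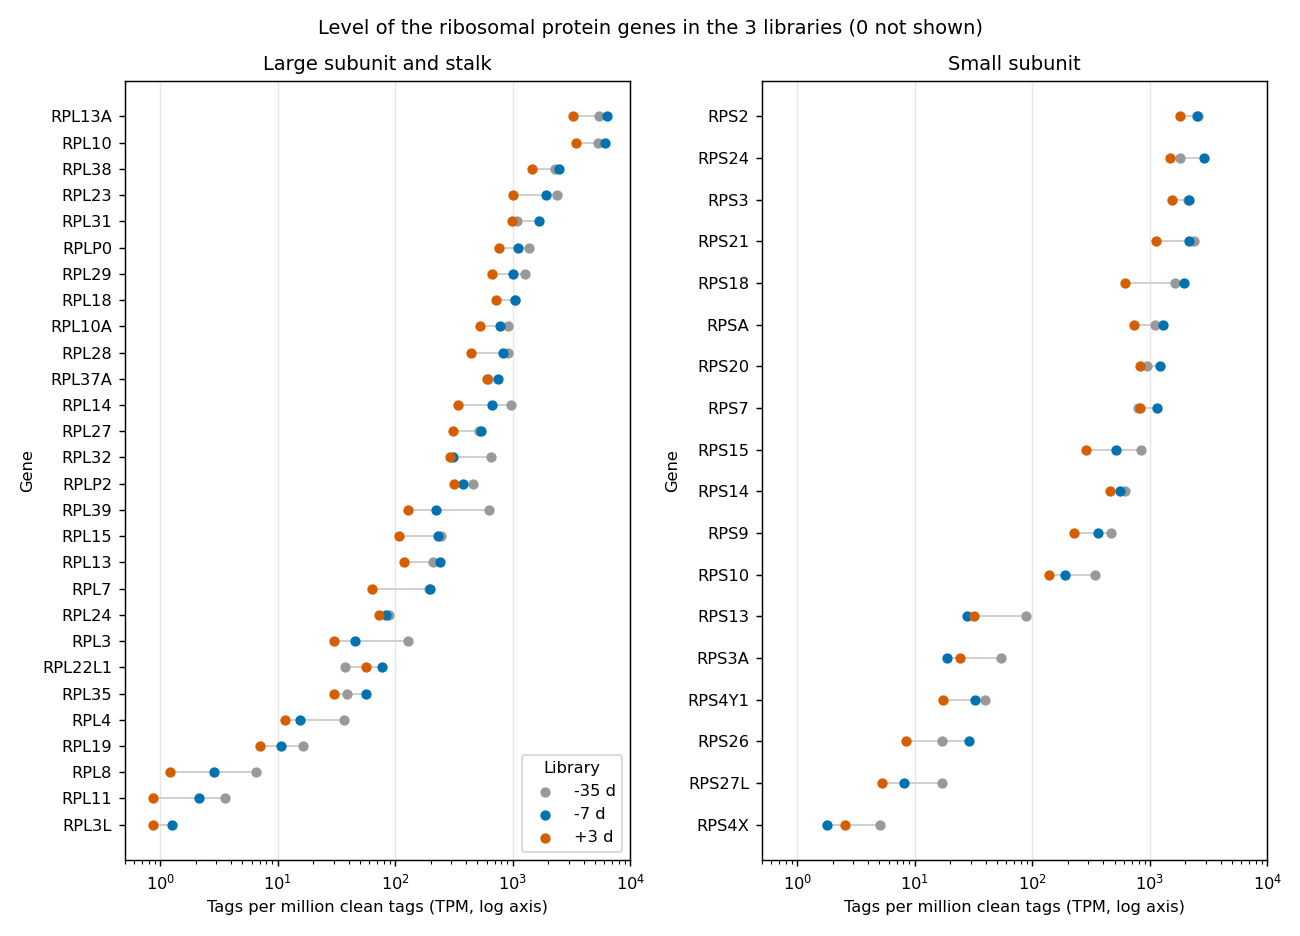
Level of 46 of the 51 ribosomal protein genes (rows) in the libraries of −35 d (grey), −7 d (blue) and +3 d (orange), in TPM on a log axis, with the large subunit and its stalk on the left and the small subunit on the right. The +3 d point is the lowest of the 3 for 40 of the 46 genes and the highest for none, and RPL3L at −35 d, with 0 tags, is not drawn.

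The family held a larger share of the library before parturition than after it. Its share of all clean tags was 4.71% in the −35 d library (Wilson 95% interval 4.69% to 4.72%). In the −7 d library it was 5.11% (5.10% to 5.13%), and in the +3 d library 3.04% (3.02% to 3.05%). These intervals cover counting error only and not the spread between cows. The large subunit without its stalk took 2.57%, 2.71% and 1.56% of the clean tags, and the small subunit took 1.96%, 2.26% and 1.36%.

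The milk protein genes moved in the same libraries. The 5 genes that exceeded 1% of a library (CSN1S1, CSN2, CSN3, CSN1S2 and PAEP, which encode the caseins and β-lactoglobulin) together held 0.348%, 4.13% and 22.6% of the clean tags. Without the tags of these 5 genes, the ribosomal protein share was 4.72%, 5.34% and 3.92%. The order of the 3 libraries was the same under both totals, but the distance from −7 d to +3 d was smaller without the milk protein genes. As a log2 Ratio of the family's summed tags, +3 d against −7 d was −0.75 (95% interval −0.76 to −0.74) on clean tags and −0.44 without the 5 genes. Against −35 d, +3 d stood at −0.63 (−0.64 to −0.62) on clean tags and at −0.27 without the 5 genes. Between −35 d and −7 d the sum differed by 0.12 (0.11 to 0.13) on clean tags and by 0.18 without them.

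**Figure D2:**
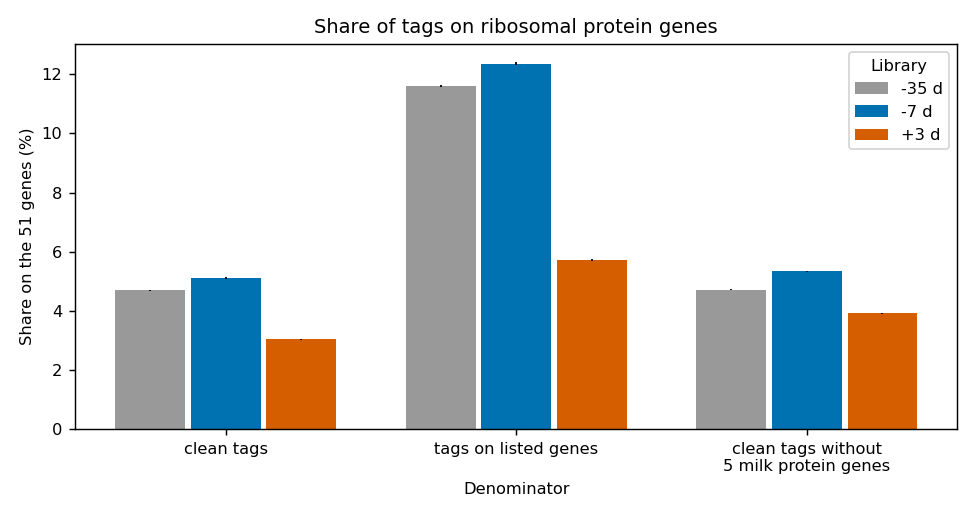
Share of tags on the 51 ribosomal protein genes (vertical axis, %) in the 3 libraries, out of all clean tags, of the tags on listed genes, and of the clean tags without the 5 milk protein genes, with Wilson 95% intervals as thin black lines. The +3 d bar is the lowest under each total, at 3.04%, 5.73% and 3.92%.

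Cell type markers were read beside these shares. Of 14 luminal epithelium markers, 12 were in the tables, and none of these 12 was at 0 TPM. Their summed level of 4614, 42394 and 232054 TPM was mostly that of 6 milk protein genes (the 4 caseins, LALBA and PAEP). The other 6 (BTN1A1, CDH1, ELF5, EPCAM, KRT8 and MUC1) summed to 1125, 869.5 and 716.2 TPM, with EPCAM at 497.8, 293.0 and 210.2 TPM and BTN1A1 at 4.40, 42.6 and 85.9 TPM. Of 8 fibroblast markers, 7 were in the tables, none at 0, with summed levels of 8021, 6054 and 9225 TPM. Of 12 T cell markers, 11 were in the tables, none at 0, with 289.3, 185.6 and 176.2 TPM. Of 8 neutrophil markers, 5 were in the tables, and their sum of 2666, 1674 and 1147 TPM was nearly all LTF, which the gland also secretes. The other 4 summed to 15.9, 8.04 and 11.3 TPM, where S100A12 was at 0 at −35 d and +3 d and ELANE at 0 at −7 d. Macrophage markers (11 of 13 in the tables) summed to 498.3, 337.4 and 580.6 TPM. Myoepithelium and smooth muscle markers (8 of 8) had 862.3, 511.9 and 964.8 TPM, and adipocyte markers (8 of 8) 308.1, 253.2 and 541.1 TPM. Endothelium markers (7 of 8) had 126.3, 97.6 and 142.7 TPM. B cell and plasma cell markers (6 of 12) had 306.5, 168.4 and 181.0 TPM, and erythrocyte markers (4 of 7) 2.37, 1.79 and 4.11 TPM. The part of these cell types in the ribosomal protein values was not tested.

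Genes were compared between libraries with the test that the study used, the exact test of Audic and Claverie on tag counts. It compares 2 libraries and counts only the sampling error of tags, so it says nothing of the spread between cows or pools. A gene was called lower or higher at a false discovery rate (FDR) of at most 0.001 and a log2 Ratio of at least 1 in size. Scaling by the trimmed mean of M values (TMM), which is less moved by a few very abundant genes than the clean tag total, raised every log2 Ratio by 0.19 for −7 d against −35 d, by 0.31 for +3 d against −7 d and by 0.50 for +3 d against −35 d. With it, the summed tags of the family differed by 0.31, −0.44 and −0.13 in these comparisons.

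The comparison of −7 d with −35 d asks which genes differ as the dry gland nears parturition, and here the family was split. RPL3, RPL4, RPL32, RPL39, RPS3A, RPS13 and RPS27L were called lower, and RPL22L1 was among the 2 called higher. The 7 lower calls were 13.7% of the members, beside 6.45% of all 8967 genes tested that were called lower. The 2 higher calls were 3.92%, beside 2.62% of all genes. With TMM scaling, 5 members were called lower (3.9% of all genes) and 2 higher (4.22%), the losses being RPL32 and RPS27L. The median log2 Ratio of the 50 members with more than 3 tags in both libraries was −0.09 on clean tags and turned to 0.10 with TMM scaling. Over all 7556 such genes it was −0.18 on clean tags and 0.008 with TMM scaling.

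The comparison of +3 d with −7 d spans the step into lactation, and 48 of 51 members lay below 0 on clean tags and 42 with TMM scaling. Of all 7425 genes with more than 3 tags in both libraries, 4968 lay below 0 on clean tags and 3701 with TMM scaling. Called lower were 5 members, among them RPL7, RPL15, RPS18 and RPS26, and none was called higher. These 5 were 9.80% of the members, beside 10.4% of all 8784 genes called lower and 3.12% called higher, so the share of lower calls was near that of all genes. The median log2 Ratio was −0.64, against −0.30 over all genes. The 3 members above 0 on clean tags were RPS13, RPS3A and RPS4X, at 0.18, 0.38 and 0.52, and none of the 3 passed the test. With TMM scaling the median was −0.33, against 0.003 over all genes. Under that scaling 3 members were called lower (4.9% of all genes), RPL15 not among them, and none higher (5.87%).

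Across the whole period, 21 members were called lower at +3 d than at −35 d and none higher. That was 41.2% of the members, beside 16.3% of all 8988 genes called lower and 2.33% called higher. The median was −0.83 over 50 members, against −0.52 over all genes, and 45 of the 50 lay below 0 on clean tags and 35 with TMM scaling. Of all 7518 genes with more than 3 tags in both libraries, 5657 lay below 0 on clean tags and 3833 with TMM scaling. With TMM scaling 7 members were called lower (beside 4.94% of all genes) and RPL22L1 higher (6.23% of all genes). The 7 were RPL3, RPL4, RPL7, RPL8, RPL39, RPS15 and RPS27L. The median with TMM scaling was −0.33, against −0.02 over all genes. The comparison shares its libraries with the other 2, so the 3 sets of calls are not independent.

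A coefficient of variation of 0.2 between pools, assumed because none could be measured, left few calls. With it, edgeR's exact test called 0 members from −35 d to −7 d (0.301% of all genes lower, 0.301% higher) and 0 from −7 d to +3 d (1.08% lower, 0.74% higher). For +3 d against −35 d it called RPL3 and RPL39 lower (1.13% of all genes) and none higher (0.601%).

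**Figure D3:**
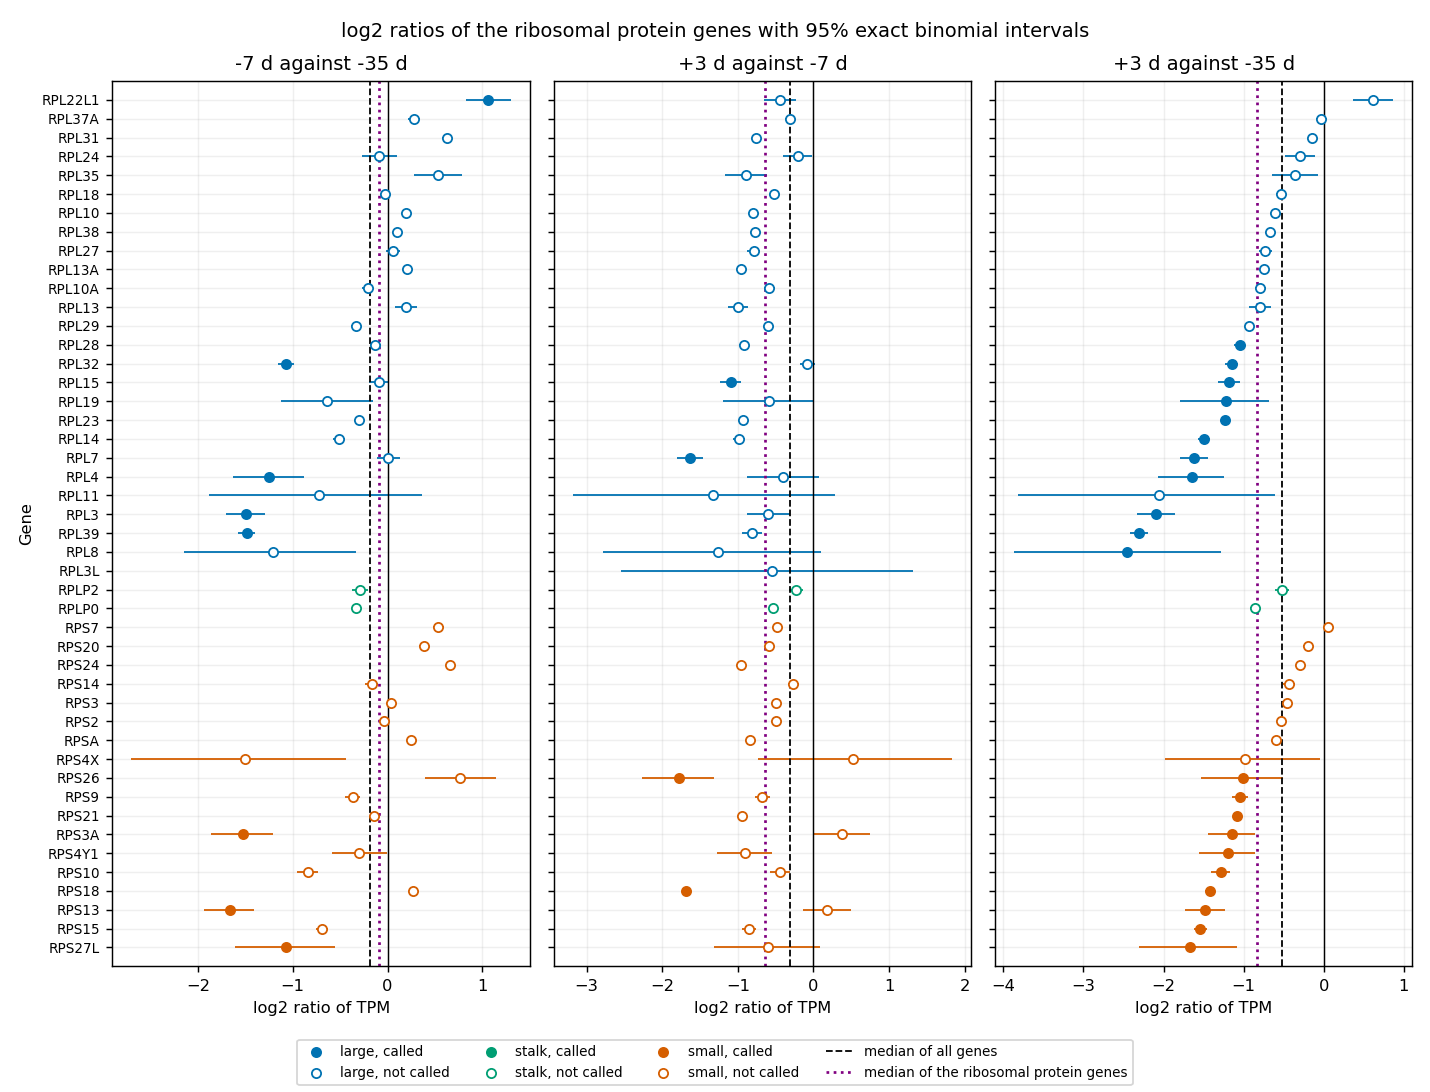
log2 Ratio of TPM on clean tags for 46 of the 51 ribosomal protein genes (rows, by subunit) in the 3 comparisons, with exact binomial 95% intervals (counting error only), filled where called and open where not. In the middle panel 43 of the 46 lie below 0 and 4 are called, while in the left panel 28 lie below 0 and 17 above. Over all 50 members with a ratio in the left comparison, drawn or not, 28 lie below 0 and 22 above. Dashed and dotted lines mark the medians of all genes and of all 51 ribosomal protein genes, and RPL3L has no ratio against −35 d.

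RPL3, RPL39 and RPL8 had the lowest log2 Ratios of the family from −35 d to +3 d, and RPL4 followed the same order of libraries. RPL3, which reaches towards the peptidyl transferase centre, had 755, 253 and 175 tags in the 3 libraries, or 127.7, 45.2 and 29.9 TPM. Its log2 Ratio was −1.50 (95% interval −1.71 to −1.29) from −35 d to −7 d and −2.09 (−2.34 to −1.85) from −35 d to +3 d. The 3 levels of RPL3 thus stood in falling order, with the wider gap before parturition. The step from −7 d to +3 d, at −0.60 (−0.88 to −0.31), was not called.

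RPL39, a very small protein in the wall of the tunnel, gave the same order at a higher level. It had 627.5, 223.8 and 127.1 TPM (3711, 1252 and 743 tags), with log2 Ratios of −1.49 (−1.58 to −1.39) to −7 d and −2.30 (−2.42 to −2.19) to +3 d, both against −35 d. RPL4, which narrows the tunnel, had 36.5, 15.4 and 11.6 TPM. It was called lower against −35 d at −7 d (−1.25, interval −1.63 to −0.88) and at +3 d (−1.65, −2.07 to −1.25). Its interval from −7 d to +3 d, −0.88 to 0.07, included 0. RPL8, a neighbour of the catalytic centre, had only 39, 16 and 7 tags (6.59, 2.86 and 1.20 TPM). It was called lower in the comparison of +3 d with −35 d alone, at −2.46 (−3.87 to −1.28) and an Audic-Claverie exact test FDR of 5.55e-06. Other proteins of these sites gave other values. RPL10, near the catalytic centre, had log2 Ratios of 0.19 and −0.80 in the 2 successive steps. RPL31 at the tunnel exit had 0.62 and −0.76 and RPL35 beside it 0.53 and −0.89, and none of these was called.

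RPL32 was lower at −7 d than at −35 d. It had 649.3, 309.5 and 292.4 TPM (3840, 1731 and 1709 tags), a log2 Ratio of −1.07 (−1.15 to −0.99) from −35 d to −7 d and of −0.08 (−0.18 to 0.02) from −7 d to +3 d. The interval of the second step includes 0 on clean tags, while with TMM scaling that step was at 0.23, not called. On clean tags +3 d was called lower than −35 d at −1.15 (−1.23 to −1.07), a call lost with TMM scaling. RPL11, which binds the 5S rRNA and restrains MDM2 when ribosome assembly fails, had 21, 12 and 5 tags. Its log2 Ratio of −2.05 (−3.82 to −0.61) from −35 d to +3 d was not called, with an exact test FDR of 0.00429.

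RPL7 and RPL15 were lower after parturition. RPL7, which lies near the 5S rRNA, had 194.3 TPM at −35 d and 195.4 TPM at −7 d, and 63.3 TPM at +3 d (1149, 1093 and 370 tags). The log2 Ratio was 0.01 (−0.11 to 0.13) before parturition and −1.63 (−1.80 to −1.46) from −7 d to +3 d. On clean tags the 2 libraries before parturition were thus within counting error of each other, while with TMM scaling the first ratio was 0.20, not called. RPL15 had 246.5, 231.5 and 108.5 TPM, with −0.09 (−0.20 to 0.02) and −1.09 (−1.23 to −0.96) in the 2 steps, and the latter call was lost with TMM scaling (−0.79). Both genes were also called lower for +3 d against −35 d, RPL7 at −1.62 (−1.79 to −1.45) and RPL15 at −1.18 (−1.32 to −1.05), of which RPL7 alone was called with TMM scaling.

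Beside RPL8, the large-subunit genes RPL14, RPL19, RPL23 and RPL28 were called lower in the comparison of +3 d with −35 d and in no other. RPL23, whose surface on the joining face of the large subunit is also bound by the anti-association factor EIF6, had 2352, 1907 and 1002 TPM and a log2 Ratio of −1.23 (−1.28 to −1.19). RPL14 had 956.5, 670.8 and 340.1 TPM (−1.49, −1.57 to −1.42), and RPL28 had 905.9, 828.1 and 437.8 TPM (−1.05, −1.12 to −0.98). RPL19, which takes part in a bridge between the subunits, had 16.4, 10.6 and 7.01 TPM (−1.23, −1.79 to −0.68). In each of RPL14, RPL19, RPL23 and RPL28 the 3 levels stood in falling order on clean tags, and each call was lost with TMM scaling. The log2 Ratio of RPL28 from −35 d to −7 d, −0.13 on clean tags, turned to 0.06 with TMM scaling, not called. For RPL19 the interval from −7 d to +3 d, −1.20 to 0.01, included 0.

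The stalk of the large subunit recruits the elongation factors and activates their GTP hydrolysis. RPLP0, its base, had 1374, 1095 and 756.1 TPM, and RPLP2, one of the acidic proteins bound to it, had 457.7, 373.3 and 318.2 TPM. Both had their highest level at −35 d and their lowest at +3 d. No ratio of either gene was called, and the log2 Ratio of RPLP2 from −7 d to +3 d, −0.23 on clean tags, turned to 0.08 with TMM scaling.

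In the small subunit, RPS13 and RPS3A shared a pattern in which the dry gland was highest and −7 d lowest. RPS13, which contacts the large subunit, had 88.4, 27.9 and 31.7 TPM (523, 156 and 185 tags). Its log2 Ratio of −1.66 (−1.93 to −1.40) from −35 d to −7 d was the lowest of the family, and at +3 d it stood at −1.48 (−1.73 to −1.24) against −35 d. RPS3A, on the platform next to the mRNA exit, had 53.6, 18.6 and 24.1 TPM, with −1.53 (−1.86 to −1.20) to −7 d and −1.15 (−1.45 to −0.86) to +3 d against −35 d. Both were called lower in these 2 comparisons. From −7 d to +3 d RPS13 stood at 0.18 (−0.13 to 0.50) and RPS3A at 0.38 (−0.0004 to 0.76). On clean tags the order of −7 d and +3 d was thus within counting error for both. With TMM scaling these ratios were 0.49 and 0.68, not called. RPS4X had the same order of libraries on few tags. With TMM scaling both were called for −7 d against −35 d, and neither for +3 d against −35 d.

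RPS18 and RPS26 were highest at −7 d and lowest at +3 d. RPS18, in the head of the subunit near the tRNAs, had 9645, 10977 and 3556 tags, or 1631, 1963 and 608.3 TPM. Its log2 Ratio of −1.69 (−1.74 to −1.64) from −7 d to +3 d was the lowest among members with more than 1000 TPM before parturition. RPS26, which touches the mRNA upstream of the start codon, had 16.9, 28.8 and 8.38 TPM (100, 161 and 49 tags) and −1.78 (−2.27 to −1.31), the lowest of the family in that step. Both were also called lower for +3 d against −35 d, RPS18 at −1.42 (−1.48 to −1.37) and RPS26 at −1.01 (−1.54 to −0.51), and both of these calls were lost with TMM scaling.

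RPS9, RPS10, RPS15 and RPS21 had 3 levels in falling order on clean tags and were called lower for +3 d against −35 d only. The log2 Ratio of RPS21 from −35 d to −7 d, −0.14 on clean tags, turned to 0.05 with TMM scaling, not called. RPS15, in the head, had 832.5, 515.1 and 285.7 TPM and a log2 Ratio of −1.54 (−1.62 to −1.46), the one call of these 4 that was kept with TMM scaling (−1.05). RPS10, also in the head, had 339.2, 189.3 and 139.2 TPM (−1.28, −1.40 to −1.17). RPS21 had 2388, 2168 and 1125 TPM (−1.09, −1.13 to −1.04), and RPS9, whose bacterial counterpart affects decoding accuracy, had 469.7, 363.8 and 227.7 TPM (−1.04, −1.14 to −0.95).

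On clean tags 6 of 51 members had a higher level at +3 d than at −35 d, among them RPL22L1, RPS7 and, with 0 and 5 tags, RPL3L. Of the 50 members with a ratio, 5 lay above 0 on clean tags, beside 1861 of all 7518 genes with a ratio. With TMM scaling 15 of the 50 lay above 0 and 35 below, beside 3833 of the 7518 genes below 0. RPS7, a small-subunit protein that can bind MDM2, had 793.7, 1151 and 824.7 TPM, with log2 Ratios of 0.54 (0.48 to 0.59) and −0.48 (−0.53 to −0.43) in the 2 steps. Neither passed the threshold of size, and for +3 d against −35 d its ratio was 0.06 on clean tags, with an interval that includes 0.

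The other members had no call of their own. On clean tags 24 of the 51 members were called in at least 1 comparison, beside 27.2% of all 9154 genes, and 27 in none. With TMM scaling 13 members were called in at least 1, beside 19.9% of all genes. Of the 27 without a call on clean tags, 24 had at least 100 tags in every library, so that their ratios were measured on many tags. RPS24, a protein of the body of the small subunit, had 1819, 2878 and 1480 TPM, with log2 Ratios of 0.66 and −0.96, the latter just inside the 2-fold threshold. RPSA, also known as the laminin receptor, had 1095, 1303 and 727.0 TPM, and RPS3, at the mRNA entry and known for a repair function outside the ribosome, had 2098, 2152 and 1527 TPM. Among the 24, the lowest ratio from −7 d to +3 d was −0.996, of RPL13, and from −35 d to +3 d it was −0.93, of RPL29.

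The paralogs did not follow a single pattern. RPL22L1, the paralog of RPL22, had 219, 432 and 332 tags (37.0, 77.2 and 56.8 TPM) and was called higher from −35 d to −7 d at 1.06 (0.82 to 1.30). It was the highest of the family for +3 d against −35 d, at 0.62 (0.37 to 0.87), which was called with TMM scaling (1.12) and not on clean tags. RPS27L, a paralog of RPS27 known as a p53 target, had 100, 45 and 31 tags (16.9, 8.05 and 5.30 TPM). It was called lower against −35 d at −7 d (−1.07, −1.61 to −0.55) and at +3 d (−1.67, −2.30 to −1.08). Both RPL22L1 and RPS27L were listed, while RPL22 and RPS27 themselves were listed in none of the 3 libraries.

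RPL3L, a paralog of RPL3 best known from striated muscle, had 0, 7 and 5 tags in the 3 libraries. A count of 0 allows up to 0.507 TPM in the −35 d library, and 1.25 and 0.86 TPM stood in the other 2, with no call. RPS4X and RPS4Y1 encode near-identical proteins, so their split of tags is uncertain. RPS4Y1 had 39.7, 32.4 and 17.3 TPM and was called lower for +3 d against −35 d at −1.20 (−1.55 to −0.86), a call lost with TMM scaling. RPS4X had 30, 10 and 15 tags (5.07, 1.79 and 2.57 TPM), with −1.50 (−2.70 to −0.43) to −7 d and an exact test FDR of 0.00896, not called.

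The members differed from one another in unambiguous tags by more than counting error. Over the 47 members without the 4 paralogs, the standard deviation of the log2 Ratios was 0.71, 0.46 and 0.67 in the 3 comparisons. Before parturition the log2 Ratios ran from −1.66 to 1.22 with a standard deviation of 0.72 over 50 genes, while the median counting error of a single ratio was 0.04. On clean tags the 95% interval lay wholly below 0 for 23 members and wholly above 0 for 20, beside 2444 and 1248 of all 7556 genes. From −7 d to +3 d the ratios ran from −1.78 to 0.52 with a standard deviation of 0.45 over 51 genes. The interval lay wholly below 0 for 41 and wholly above 0 for none, beside 2952 and 979 of all 7425 genes. Over the whole period the ratios ran from −2.46 to 0.62 with a standard deviation of 0.69, with 44 intervals below 0 and 4 above. Over all 7518 genes these intervals numbered 3794 and 747. The median counting error over all genes was 0.21, 0.23 and 0.22, larger than that of the members, so their intervals excluded 0 less readily. The interquartile range over members was 0.88, 0.46 and 0.85 in the 3 comparisons, against 0.84, 0.95 and 0.97 over all genes. With 1 pool per time point, the part of pools and cows in this spread cannot be told apart from that of the time points. Tags that matched several genes were left out of these counts, and their part in the spread was not tested.

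The ratio before parturition varied with the level of the member. The members were divided at mean levels of 100 and 1000 TPM, limits set after the values were seen. Between −35 d and −7 d the median log2 Ratio was −0.90 over 14 members under 100 TPM, −0.13 over 21 members in between and 0.20 over 15 members from 1000 TPM. Other genes of the same level classes had medians of −0.19, −0.10 and 0.05. From −7 d to +3 d the medians of the 3 classes of members were −0.59, −0.60 and −0.80, without that order. Other genes had −0.29, −0.41 and, over 25 genes from 1000 TPM, 0.39 in that step. Over 50 members, Spearman's rho of mean level and log2 Ratio was 0.46, −0.10 and 0.45 in the 3 comparisons. Over 7278 other genes it was 0.12, −0.08 and 0.04. These are descriptions across genes that share the same 3 libraries, and the mean level contains the levels from which the ratio was made.

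**Figure D4:**
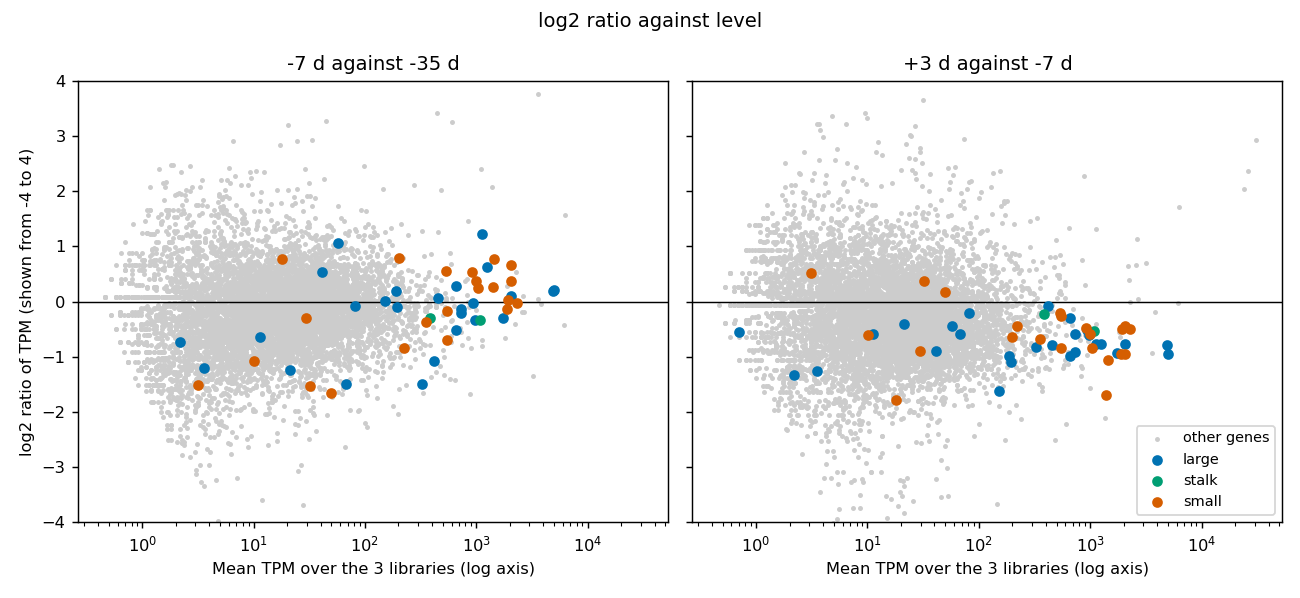
log2 Ratio of TPM (vertical axis, drawn from −4 to 4) against mean TPM over the 3 libraries (log axis) for the large subunit (blue), stalk (green) and small subunit (orange) over the other genes (grey), from −35 d to −7 d on the left and from −7 d to +3 d on the right. On the left, members under 100 TPM have a median of −0.90 and those from 1000 TPM a median of 0.20, and on the right the medians are −0.59 and −0.80.

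The subunits lay close together. From −7 d to +3 d the median log2 Ratio was −0.78 over 27 large-subunit genes and −0.59 over 22 small-subunit genes, and from −35 d to +3 d it was −0.86 over 26 and −0.79 over 22. Before parturition it was −0.09 and 0.00 on clean tags. The summed tags of the large subunit differed by 0.08, −0.79 and −0.72 in the 3 comparisons, and those of the small subunit by 0.21, −0.73 and −0.52. The difference between subunits was not tested.

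The mitochondrial ribosomal proteins, which build the separate ribosome of the mitochondrion, gave a comparison with a similar machine. Their 68 genes took 0.180%, 0.202% and 0.123% of the clean tags, so that −7 d was highest and +3 d lowest there too. Their median log2 Ratios were 0.06, −0.67 and −0.66 in the 3 comparisons, beside −0.09, −0.64 and −0.83 for the cytosolic family. The interquartile range of the mitochondrial set was 0.51, 0.57 and 0.69. Of the 68, from −35 d to −7 d 1 was called lower and 3 higher, from −7 d to +3 d 11 lower and none higher, and from −35 d to +3 d 11 lower and none higher. Over all genes, 10.4% and 16.3% were called lower in the last 2 comparisons, so 11 of 68 was near the share of all genes for +3 d against −35 d. With TMM scaling the counts were 0 and 4, 4 and 0, and 4 and 1. The 578 other genes whose mean level reached 100 TPM had medians of −0.09, −0.41 and −0.51. The differences between these sets were not tested.

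**Figure D5:**
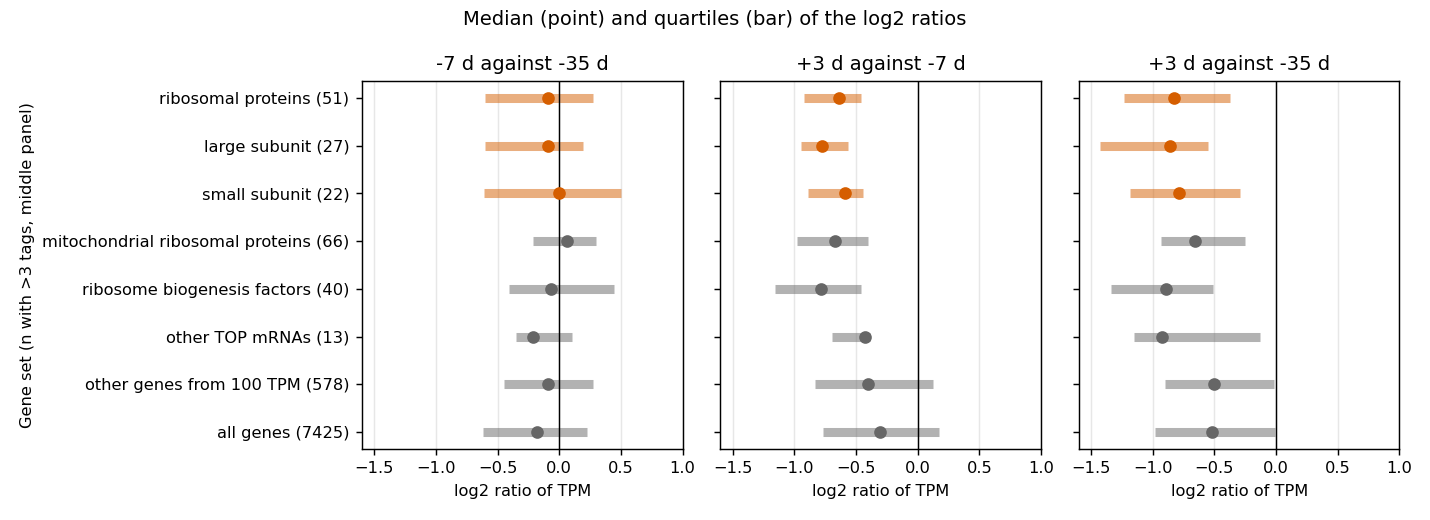
Median (point) and quartiles (bar) of the log2 Ratio of TPM on clean tags for the ribosomal protein genes and their subunits (orange) and for comparison sets (grey) in the 3 comparisons, over genes with more than 3 tags in both libraries. In the middle panel the ribosomal protein genes have a median of −0.64, the mitochondrial ribosomal proteins −0.67, and all genes −0.30. With TMM scaling the ribosomal protein median is −0.33 there, against 0.003 over all genes. In the left panel it turns from −0.09 to 0.10 with TMM scaling, against 0.008 over all genes.

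Other genes of translation and of ribosome assembly were read from lists. Their counts stand beside the shares of all genes called lower, 6.45%, 10.4% and 16.3% in the 3 comparisons on clean tags and 3.9%, 4.9% and 4.94% with TMM scaling. Of 21 elongation factors and other genes with TOP mRNAs, 13 were in the tables. None was called from −35 d to −7 d, HNRNPA1 and NACA were called lower from −7 d to +3 d (neither with TMM scaling), and EIF3E, EIF3L, HNRNPA1, NACA and PABPC1 were called lower from −35 d to +3 d. The list had medians of −0.21, −0.43 and −0.92. PABPC1, the poly(A) binding protein, had 1283, 1017 and 519.2 TPM, and NACA, a chaperone at the tunnel exit, had 800.4, 754.8 and 345.0 TPM. HNRNPA1, an RNA-binding protein of splicing, had 1341, 845.5 and 366.9 TPM, and was the 1 of the 5 still called with TMM scaling from −35 d to +3 d. EEF2, the translocation factor, had 673.4, 806.0 and 600.3 TPM and was not called.

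Of 56 ribosome biogenesis factors, 41 were in the tables, and 11 of these were called lower and none higher from −7 d to +3 d (5 lower with TMM scaling). The medians were −0.06, −0.78 and −0.89 in the 3 comparisons. The lowest log2 Ratios of that step among the called genes were those of LTV1, a factor of small-subunit export and maturation (23.8 TPM at −7 d and 6.50 TPM at +3 d, −1.87), RRS1, of 5S rRNA incorporation (26.8 and 7.87 TPM, −1.77), and NHP2, of the pseudouridylation particles (15.4 and 4.62 TPM, −1.74). SDAD1, of large-subunit export, had 8.94 and 3.42 TPM (−1.39), a call lost with TMM scaling. At −7 d, GRWD1 was called lower than at −35 d (10.5 and 3.93 TPM, −1.41, lost with TMM scaling), and the helicase DDX21 (25.02 and 50.78 TPM, 1.02) and EBNA1BP2 (1.78) higher. For +3 d against −35 d, 16 were called lower (3 with TMM scaling) and EBNA1BP2 higher, at 6.76, 23.2 and 22.9 TPM in the 3 libraries. TSR1, of the pre-40S particle, had 37, 15 and 6 tags and was the lowest of the 16, at −2.61.

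RNA polymerase I, which transcribes the large rRNAs, and its factors had 11 of 15 genes in the tables. None was called from −35 d to −7 d. POLR1B, the second largest subunit, was called lower from −7 d to +3 d at 65.4 and 26 TPM (−1.33), and TAF1D at 12.9 and 4.62 TPM (−1.48). For +3 d against −35 d, CD3EAP and TAF1D were called lower and TTF1, the terminator protein, higher at 1.69, 3.93 and 9.24 TPM (2.45). The call of CD3EAP was lost with TMM scaling. The medians were 0.22, −0.56 and −0.25, the last of which turned to 0.25 with TMM scaling.

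Of 16 genes of mTORC1 control of translation, 8 were in the tables. MYC, a transcription factor of growth genes, had 39.1, 48.1 and 13.7 TPM and was called lower from −7 d to +3 d (−1.81) and from −35 d to +3 d (−1.51), with TMM scaling too. At +3 d against −35 d, RPS6KB1, the S6 kinase, was called lower with 27, 7 and 3 tags, as were RHEB, the GTPase that activates mTORC1 (31.3, 28.1 and 14.9 TPM, −1.07), and EIF4E, the cap-binding factor (86.2, 83.5 and 42.1 TPM, −1.04). None of these last 3 was called with TMM scaling. MTOR itself had 5 and 2 tags at −35 d and −7 d, was not listed at +3 d, and was not called. The list had medians of −0.05, −0.74 and −0.997.

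The genes outside the family whose pair of successive log2 Ratios was nearest to the family's median pair were BRMS1L, SLC25A1, RNF144B, FCHO2 and UCHL1, among 4197 genes with at least 50 tags in every library. Their distances, on the log2 scale, ran from 0.0228 to 0.0300 over the 2 steps. SLC25A1, the mitochondrial citrate carrier, had 21.8, 20.2 and 12.8 TPM, with −0.11 and −0.66 in the 2 steps.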

How the data were processed

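Mammary RNA pools of 6 Holstein cows at −35 d, −7 d and +3 d gave 1 digital gene expression library each (18 cows in all). The authors removed adaptor, short and single-copy tags, matched tags to the CATG sites of the bovine transcripts (UMD 3.1) with at most 1 mismatch, and deposited the counts of unambiguous tags per gene. The deposited TPM values were those counts divided by the clean tags, to within 0.0050 TPM. Ribosomal protein genes, lists and level classes were chosen with earlier results of these data known.

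The 3 gene tables were joined by accession, and a gene not listed was given 0 tags (the smallest listed count was 2). Each pair of libraries was compared with the Audic-Claverie exact test, two-sided as 2 times the smaller tail, with Benjamini-Hochberg adjustment over all genes with a tag in either library. Calls needed an FDR of at most 0.001 and a 2-fold difference, with 0 TPM set to 0.01. No ratio was given from 3 tags or fewer in medians, and intervals of ratios were exact binomial. Named genes were the called members, the 5 highest and 5 lowest by mean TPM, the 3 highest and 3 lowest ratios per comparison, the paralogs, up to 4 called genes of each list and comparison, and the 5 nearest genes; EEF2, FAU, RPL31, RPL35, RPS3, RPS7, RPS24, RPSA, RPL13, RPL29 and the stalk genes were added after their values were seen, and 5 members are not reported here by name. The script was tested on simulated data. Alternatives were TMM (edgeR 4.0.16), DESeq2 1.42.0 size factors, totals without genes over 1%, Fisher's exact test, a coefficient of variation of 0.2, a 3-fold threshold, a filter at 5 TPM, 0.5 added tags, and other member sets. Python 3.11.15, scipy 1.17.1 and R 4.3.3 were used. RefSeq names (assembly ARS-UCD2.0) matched 50 of the 51 accessions, all with the same symbol. Whether the pools differ technically cannot be told from 1 library each.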

Additional observations from a re-analysis of the deposited data

How the results depend on the processing

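Of 105 alternatives for the counts, medians and shares, 31 moved the value, a count by over 1.5 times, or a median or share out of its 95% binomial interval. The other 74 stayed inside these limits, though some changed, such as 7 to 5 lower calls from −35 d to −7 d with TMM. With TMM scaling 3 members were called lower from −7 d to +3 d (median −0.33), and 7 lower and 1 higher from −35 d to +3 d (median −0.33). DESeq2 size factors gave 3 lower (median −0.32), and 7 lower and 1 higher (median −0.31). Totals without the genes over 1% gave 3 lower (median −0.33) and 10 lower (median −0.47). The sign of the median from −35 d to −7 d turned with TMM and with DESeq2, to 0.10 with each. An assumed coefficient of variation of 0.2 gave 0 lower and 0 higher from −35 d to −7 d, 0 lower from −7 d to +3 d and 2 lower from −35 d to +3 d. A 3-fold threshold gave 1 lower and 0 higher, 3 lower, and 6 lower in these comparisons. Shares of all genes called are given above for clean tags, TMM scaling and the assumed coefficient of variation. For DESeq2 size factors, totals without genes over 1% and the 3-fold threshold they are not given here. The member counts under those settings can therefore not be set against the share of all genes. Without the paralogs 1 member was called higher from −35 d to −7 d. Restricted to the 36 members whose mean level reached 100 TPM, a set chosen after seeing the data, 2 were called lower and 1 higher from −35 d to −7 d, and 12 lower from −35 d to +3 d. The share of the family was 11.6%, 12.4% and 5.73% of the tags on listed genes, and 5.34% at −7 d and 3.92% at +3 d without the genes over 1%. Of the 35 single calls none reversed, 18 were lost with TMM, 18 with DESeq2, 13 without the genes over 1% and 33 with the coefficient of variation of 0.2.

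The count of the most abundant tag of each gene alone, planned as an alternative, and the tag sequences of the members were not run, because transcripts were not given here. No paired analysis was possible because each time point has 1 pooled library. With 3 tags as the limit that a count of 0 allows, 0 tags permit up to 0.507, 0.536 and 0.513 TPM in the 3 libraries, so depth limits RPL3L, RPL8, RPL11 and RPS4X most. The scaling, the spread between pools and the tags of several genes limit the calls.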

Other observations

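Predicted genes named as similar to ribosomal proteins (L36a-like, L22, S6-like, SA-like and L5-like), which the name rule leaves out, numbered 5 in the tables and had 0 to 124 tags per library. RPS4Y1, named after a Y-linked gene of primates, was listed with 235, 181 and 101 tags in pools of cows, and its accession has the same symbol in the bovine RefSeq annotation. RPS9, often used as a reference gene in bovine mammary work, had 469.7, 363.8 and 227.7 TPM in the 3 libraries, a log2 Ratio of −1.04 from −35 d to +3 d on clean tags and −0.55 with TMM scaling. The rank of the median member among all listed genes was 77, 81 and 112 at −35 d, −7 d and +3 d.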
